A study of Danio rerio with 12 samples.

Results

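Efferocytosis is the uptake of dying cells by phagocytes. The 10 zebrafish genes described here encode receptors (mertka, axl, timd4, stab1, stab2, marco), bridging proteins (gas6, mfge8a, mfge8b) and an intracellular adaptor (elmo1) of that process. They were taken by name, with earlier results of these data known. Of them 10 of 10 were found among the 25281 genes of the 2 deposited tables, axl under the capitalised name AXL. Their levels come from macrophages and microglia, sorted as mCherry-positive cells out of dissociated larval eyes, at most 1000 cells to a library. Ablated libraries (labelled MTZ+) came from larvae in which the pigment cell layer that backs the photoreceptors, called the retinal pigment epithelium or RPE, had been destroyed genetically with 10 mM metronidazole given for 24 h between 5 and 6 days post-fertilisation. Unablated libraries (labelled MTZ-) came from larvae that received no metronidazole, so an effect of metronidazole itself cannot be told apart from that of RPE loss. Larvae of both conditions were kept in phenylthiourea, which blocks pigmentation, between 0.25 and 5 days post-fertilisation. Sorts were made 2 or 4 days after the injury (dpi, days post-injury), and 3 libraries per condition and time gave 12 in all. The larval age in the titles of the replicate 2 libraries at 2 dpi counts these days from the start of metronidazole, at 5 days post-fertilisation. The other titles name no age. The sources used here do not give the promoters behind the mCherry and ablation transgenes, the fish strain or the number of larvae pooled for a library.

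A dying cell exposes phosphatidylserine on its surface, and phagocytes read that signal directly or through soluble bridging proteins. In mammals TIM4 and the stabilins bind phosphatidylserine themselves, MERTK and AXL are receptor kinases that bind it through GAS6, and MFG-E8 links it to integrins. The adaptor ELMO1, working with a DOCK protein, then activates Rac so that the membrane closes around the target, and the meal is digested in lysosomes and its lipid exported. In the eye the best known user of MERTK is the RPE itself, which takes up shed outer segments of photoreceptors every day, and retinal macrophages and microglia clear dying neurons and epithelial cells.

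Library depth ran from 19791633 to 38935355 counts, with 16299 to 19601 genes detected. The macrophage marker gene mpeg1.1 stood between 929.9 and 2000 TPM in all 12, and none of the 14 macrophage or 10 microglia markers was at 0 in any library. TPM is a transcript abundance scaled by gene length and library depth, so its levels can be compared between genes. RNA of other eye cells was present. The 27 photoreceptor markers summed to 15890, 1996 and 128.7 TPM in ablated and to 146700, 131000 and 371.7 TPM in unablated replicates 1 to 3 at 2 dpi, so unablated replicates 1 and 2 stood apart. At 4 dpi the sums were 110.2, 38100 and 36.03 TPM in ablated against 6103, 277.5 and 6453 TPM in unablated libraries. The RPE gene rpe65a reached 279.5 TPM in unablated replicate 2 at 2 dpi and at most 6.086 TPM elsewhere. Because each library is a bulk sample, fewer cells of a type and less RNA per cell cannot be told apart. Replicates are not described as separate pools of animals, so each p-value covers only the spread among libraries within groups of 3, part of which may be technical. That spread was estimated over all groups of a fit together.

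Across the 12 libraries the 10 genes spanned more than 3 orders of magnitude in level. The adaptor elmo1 was the most abundant with a mean of 250.7 TPM, followed by marco with 198.6 TPM, mertka with 37.3 TPM, stab1 with 22.8 TPM and mfge8b with 17.5 TPM. Below these came mfge8a with 11.3 TPM, timd4 with 8.17 TPM, axl with 5.34 TPM, gas6 with 1.94 TPM and stab2 with 0.104 TPM. The order of neighbours was firm at some steps only. marco exceeded mertka in 12 of 12 libraries, and mertka exceeded stab1, axl exceeded gas6 and gas6 exceeded stab2 in 11 of 12 each. In contrast elmo1 exceeded marco in 9 of 12 libraries, stab1 exceeded mfge8b in 8, mfge8b exceeded mfge8a in 9, timd4 exceeded axl in 9, and mfge8a exceeded timd4 in 6, so these neighbours overlapped. The steadiest gene was elmo1, whose highest library held 1.6 times the TPM of its lowest, while mfge8a spanned 32.2-fold. Counts behind the values ran from 8801 to 22211 for elmo1, from 2 to 266 for gas6 and from 1 to 72 for stab2, so values of gas6 and stab2 are coarse.

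**Figure D1:**
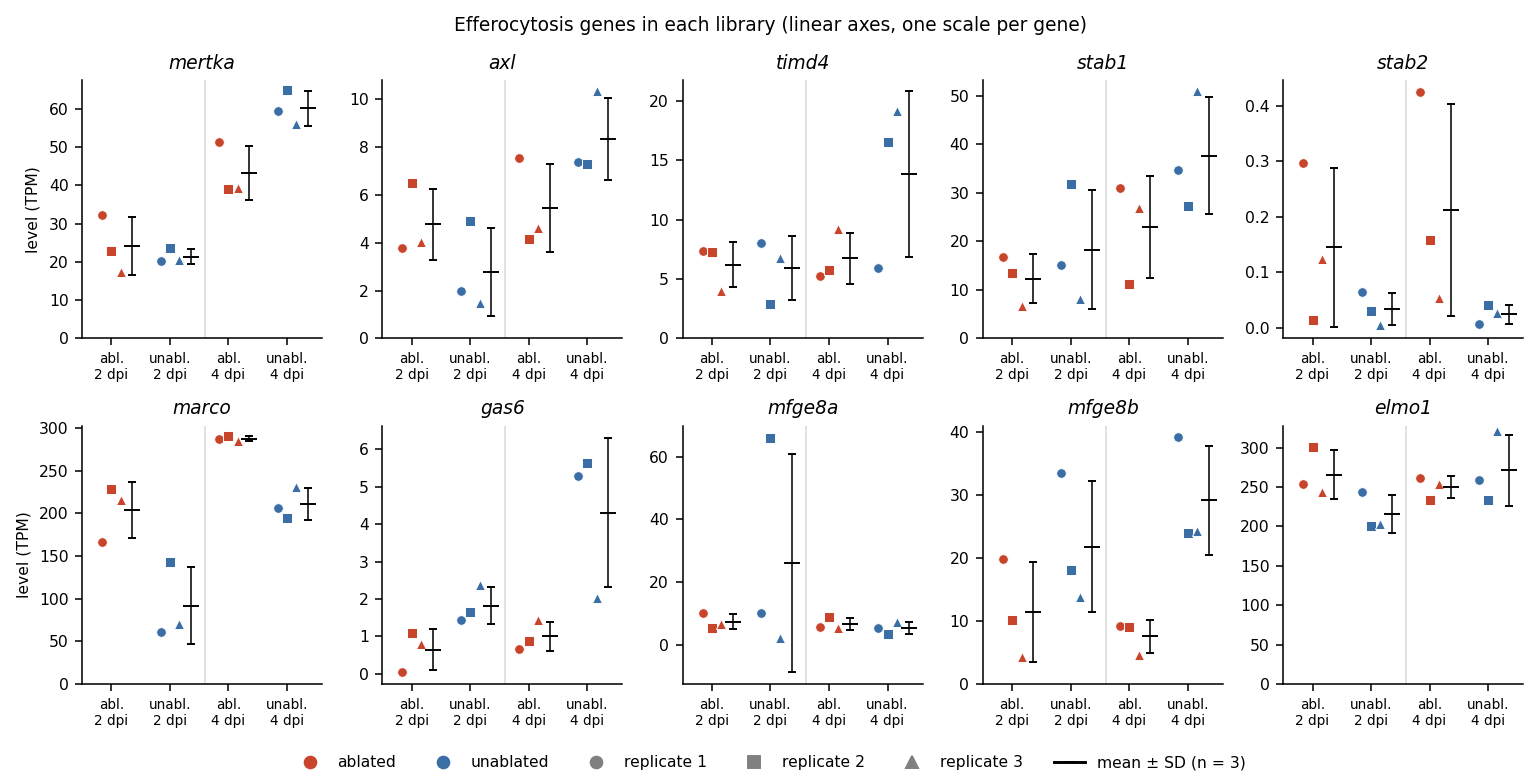
Level in TPM (linear vertical axis, one scale per gene) of each of the 10 genes in each of the 12 libraries, with the ablated libraries left of the unablated ones at 2 dpi and then at 4 dpi; colours give the condition, symbols the replicate, and bars the mean and SD of 3 libraries. At 4 dpi the ablated and unablated points of marco, mertka, gas6, mfge8b and the low-count stab2 do not overlap, and mfge8a has a single high point of 66.0 TPM in unablated replicate 2 at 2 dpi.

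Among the receptors, the scavenger receptor marco was the one that stood higher in ablated libraries without overlap at both times. marco (ENSDARG00000059294, GRCz11 chromosome 9, 795609 to 813693, minus strand) encodes a class A scavenger receptor that in mammals binds bacteria and particles on macrophages. At 2 dpi it measured 166, 229 and 216 TPM in ablated replicates 1 to 3 and 61.5, 143 and 70.8 TPM in unablated ones. The groups did not overlap, and unablated replicate 2 lay closest to the ablated libraries. The log2 fold change was 0.99 (SE 0.35, 95% interval 0.13 to 1.84, edgeR adjusted p = 0.239), which missed the threshold of 0.05. With unablated replicates 1 and 2 left out, which leaves 1 unablated library, it was 1.17. marco passed at 2 dpi in a single alternative, the fit of all 12 libraries (1.07, edgeR adjusted p = 0.0412), which called 1142 of all 18079 genes. The macrophage markers summed to 12530 to 14320 TPM in ablated and 5944 to 12610 TPM in unablated libraries at that time, and the neutrophil markers to 537.1 to 628.6 and 215 to 314.6 TPM. The neutrophil gene mpx was at 4.01, 0 and 16.8 TPM in ablated replicates 1 to 3 and at 0 in each unablated one.

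At 4 dpi marco was at 288, 290.2 and 285 TPM in ablated and 206, 195 and 232 TPM in unablated libraries. The 3 ablated libraries lay close together and above every unablated one. The log2 fold change of 0.48 (SE 0.11, 95% interval 0.21 to 0.75) narrowly missed the call (edgeR adjusted p = 0.0694). It passed with DESeq2 (adjusted p = 0.000234), with limma on log2(TPM + 1) (adjusted p = 0.0400) and without ablated replicate 2 (edgeR adjusted p = 0.0440). Those settings called 2317, 1672 and 1420 of all genes, against 605 in the reported fit. The summed macrophage markers moved the same way at 4 dpi, at 12830 to 14090 TPM in ablated against 11470 to 12130 TPM in unablated libraries. Within that list spi1b was higher without overlap (900.9, 731.1 and 835.6 against 613.9, 613.7 and 597.3 TPM). csf1rb was lower without overlap (49.2, 41.5 and 48.6 against 56.0, 65.6 and 56.4 TPM), and mpeg1.1 overlapped (1581, 1179 and 1452 against 1672, 1502 and 2000 TPM). Neutrophil markers also summed higher, at 845.8 to 969.9 against 579.2 to 745.4 TPM, with at most 4 of 10 at 0. Of these mpx overlapped, at 7.5, 0.0166 and 0.441 TPM in ablated and 0, 1.17 and 0 TPM in unablated libraries. The part of these cell types in the marco values was not tested at either time.

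mertka (ENSDARG00000074695, chromosome 13, 47623916 to 47691710, plus strand), the zebrafish MERTK gene found in the tables, did not differ at 2 dpi beyond its spread. Its levels were 32.4, 22.8 and 17.2 TPM in ablated and 20.2, 23.5 and 20.5 TPM in unablated libraries, with all unablated values inside the ablated range. The log2 fold change was 0.01 (95% interval -0.68 to 0.70) and its sign turned under DESeq2's size factors (-0.15). At 4 dpi ablated libraries held 51.5, 39.1 and 39.3 TPM and unablated libraries 59.6, 65.1 and 56.0 TPM. Every ablated library lay below every unablated one, yet the difference of -0.45 on the log2 scale (SE 0.17, 95% interval -0.86 to -0.03) was not called (edgeR adjusted p = 0.211). No alternative called mertka in either ablation comparison. The 10 microglia markers also summed lower at 4 dpi, at 28760 to 48810 TPM in ablated and 49590 to 75460 TPM in unablated libraries. Single markers differed, with csf1rb lower without overlap as given for marco. In contrast apoeb overlapped (34080, 19430 and 31600 against 31730, 49100 and 39300 TPM), as did p2ry12 (125.2, 80.56 and 105.2 against 71.98, 117.5 and 98.02 TPM). The part of microglia in the mertka values was not tested.

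The other TAM family kinase gene, axl (ENSDARG00000112045, chromosome 15, 58207 to 85774, plus strand), was the less abundant of the pair in every library. At 2 dpi it gave 3.80, 6.48 and 4.02 TPM in ablated and 1.97, 4.89 and 1.50 TPM in unablated libraries, which overlapped through unablated replicate 2. At 4 dpi it gave 7.56, 4.16 and 4.63 TPM in ablated against 7.39, 7.30 and 10.3 TPM in unablated libraries, which overlapped through ablated replicate 1. The log2 fold changes were 0.61 (95% interval -0.94 to 2.17) at 2 dpi and -0.58 (95% interval -1.48 to 0.33) at 4 dpi, and neither passed the test.

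timd4 (ENSDARG00000077257, chromosome 21, 29090652 to 29100110, minus strand) encodes a phosphatidylserine receptor that in mice marks resident macrophages. Its levels overlapped at both times. Ablated libraries held 7.36, 7.24 and 4.02 TPM and unablated libraries 8.06, 2.89 and 6.75 TPM at 2 dpi. At 4 dpi ablated libraries held 5.25, 5.79 and 9.19 TPM, against 5.91, 16.5 and 19.1 TPM in unablated ones. Unablated replicates 2 and 3 were the highest of all 12 libraries, while unablated replicate 1 sat among the ablated values. The log2 fold changes were -0.10 (95% interval -1.62 to 1.41) and -1.01 (95% interval -2.32 to 0.29) at 2 and 4 dpi, neither of them called.

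The stabilin genes encode large scavenger receptors that in mammals bind phosphatidylserine and, on sinusoidal endothelium, clear hyaluronan and other ligands. stab1 (ENSDARG00000076484, chromosome 22, 10281420 to 10354381, minus strand) was at 16.7, 13.4 and 6.74 TPM in ablated against 15.1, 31.8 and 8.02 TPM in unablated libraries at 2 dpi. At 4 dpi it was at 31.0, 11.2 and 26.8 TPM in ablated and 34.7, 27.3 and 50.9 TPM in unablated libraries. The groups overlapped at both times, at 4 dpi through ablated replicate 1. The log2 fold changes of -0.72 (SE 0.57) and -0.65 (SE 0.43) at 2 and 4 dpi were not called. Without unablated replicates 1 and 2, which leaves 1 unablated library, the value at 2 dpi was 0.26.

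stab2 (ENSDARG00000045748, chromosome 4, 10721795 to 10763547, plus strand) was close to absent, with 50, 2 and 24 counts in ablated and 7, 3 and 1 counts in unablated libraries at 2 dpi. At 4 dpi it gave 72, 24 and 9 counts (0.425, 0.158 and 0.0543 TPM) in ablated libraries, against 1, 4 and 4 counts (0.00649, 0.0404 and 0.0259 TPM) in unablated ones. Every ablated library was above every unablated one at 4 dpi. The 2 dpi difference was not called (log2 fold change 1.98, SE 1.45), and at 4 dpi stab2 did not pass the filter on low counts. Without that filter its log2 fold change was 3.13 (SE 1.57, edgeR adjusted p = 0.373). The vascular endothelium markers also summed higher at 4 dpi, at 56.55 to 74.69 TPM in ablated against 21.97 to 42.22 TPM in unablated libraries, with 5 to 11 and 7 to 8 of 17 markers at 0. Of the defining genes, kdrl was at 0 in 5 of these 6 libraries. pecam1 was higher without overlap (22.1, 3.94 and 23.3 TPM against 1.04, 2.78 and 0.0486 TPM), as was mrc1a. However, cdh5 overlapped (0, 1.485 and 0.02873 TPM in ablated against 1.761, 0.02403 and 0.9698 TPM in unablated libraries), as did fli1a. The endothelial sums overlapped at 2 dpi, at 28.03, 53.58 and 36.82 TPM in ablated and 31.97, 31.17 and 14.39 TPM in unablated libraries. Over replicates 1 to 3 they ran in the order of stab2 in unablated libraries and in the reverse order in ablated ones. The part of endothelial RNA in the stab2 values was not tested.

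Among the bridging genes was the one member called for ablation. mfge8b (ENSDARG00000045803, chromosome 25, 19149241 to 19192303, plus strand) encodes a secreted protein whose mammalian counterpart, MFG-E8, joins phosphatidylserine to integrins. At 4 dpi its level was 9.21, 9.03 and 4.61 TPM in ablated libraries and 39.2, 24.0 and 24.3 TPM in unablated ones, a mean of 7.62 ± 2.60 TPM against 29.1 ± 8.67 TPM (SD, n = 3 each). The highest ablated library held well below the lowest unablated one. mfge8b fell in ablated libraries with a log2 fold change of -1.91 (SE 0.32, 95% interval -2.67 to -1.15, edgeR adjusted p = 0.0357), and it was the single call among the 9 genes tested at that time.

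The size of that difference varied little, from -2.10 to -1.67 when each library was left out in turn, but the call did not last. It held without ablated replicate 2 (edgeR adjusted p = 0.0367) and was lost without ablated replicate 1 (0.0974) or 3 (0.110) and without unablated replicate 1 (0.111), 2 (0.0951) or 3 (0.0847). In those 5 refits at most 38 genes of the whole table were called, against 605 with all 6 libraries. The call was also lost with a replicate block (-1.94, edgeR adjusted p = 0.111) and with all 12 libraries in the fit (-1.91, edgeR adjusted p = 0.123). Of all genes, the block called 0 of 16313 and the fit of 12 libraries 222 of 18079. The replicate numbers at 4 dpi were not taken as pairs, so the loss with the block says little about mfge8b. It held with DESeq2 (adjusted p = 1.45e-06) and with limma on log2(TPM + 1) (adjusted p = 0.0132), which called 2317 and 1672 of all genes.

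Epithelial markers, as a sum, moved with mfge8b between the conditions at 4 dpi. The 14 of them summed to 974.7, 1373 and 877.7 TPM in ablated and 4089, 5749 and 2918 TPM in unablated libraries at 4 dpi, with none at 0. Other lists also separated in that direction at 4 dpi, with mfge8b and likewise with mertka and gas6. RPE markers summed to 1.637 to 21.6 TPM in ablated and 30.09 to 73.15 TPM in unablated libraries, with 7 to 10 and 2 to 7 of 15 at 0, and Müller glia markers to 2888 to 4833 and 5088 to 6057 TPM, with at most 3 of 10 at 0. Lens markers summed to 2.57 to 4.077 and 5.664 to 25.31 TPM, with 6 to 7 and 2 to 8 of 12 at 0, and the microglia sums separated as given above. The part of these cell types in the mfge8b values was not tested. At 2 dpi mfge8b was at 19.9, 10.2 and 4.26 TPM in ablated and 33.5, 18.2 and 13.8 TPM in unablated libraries. These groups overlapped through ablated replicate 1, and the log2 fold change of -1.09 (SE 0.64, edgeR adjusted p = 0.447) was not called. Over replicates 1 to 3 at 2 dpi the epithelial sums ran opposite to mfge8b, at 789.3, 1108 and 2312 TPM in ablated and 506.8, 2932 and 8224 TPM in unablated libraries. The microglia sums ran in its order, at 37280, 12310 and 10570 TPM and 39760, 22770 and 15510 TPM. So did the Müller glia sums, at 4451, 1636 and 932.1 TPM and 5947, 3280 and 1717 TPM. Inner retinal neuron sums (419.2, 10.59 and 2.762 TPM and 3372, 645.1 and 72.12 TPM) and the photoreceptor sums given above did too. Their part in the 2 dpi levels was not tested. BX294110.2, the one annotated gene that overlaps a member, lies on the same strand as mfge8b and held 0 to 1 counts.

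gas6 (ENSDARG00000007804, chromosome 1, 312784 to 338445, minus strand) encodes the ligand that in mammals carries MERTK and AXL to phosphatidylserine. At 2 dpi ablated libraries held 0.0363, 1.1 and 0.803 TPM and unablated libraries 1.43, 1.66 and 2.38 TPM. At 4 dpi ablated libraries held 0.668, 0.888 and 1.44 TPM and unablated libraries 5.28, 5.65 and 2.02 TPM. No ablated library reached an unablated one at either time, though the lowest ablated value, in replicate 1 at 2 dpi, rested on 2 counts. The log2 fold change was -1.69 (SE 1.19, edgeR adjusted p = 0.507) at 2 dpi and -2.08 (SE 0.66, 95% interval -3.66 to -0.50, edgeR adjusted p = 0.139) at 4 dpi. DESeq2 called gas6 at 4 dpi (-2.10, adjusted p = 0.0268), as it did 2317 of all 16313 genes. The mural and mesenchyme markers were also lower at 4 dpi in 2 of 3 ablated libraries than in any unablated one. They summed to 26.49, 8.561 and 18.41 TPM in ablated and 70.62, 90.89 and 23.54 TPM in unablated libraries, with 4 to 5 and 1 of 14 markers at 0. Of these col1a1a was lower without overlap (1.092, 0.009178 and 1.057 against 9.53, 14.28 and 3.381 TPM). However, pdgfrb overlapped (3.391, 1.156 and 3.1 against 4.113, 3.375 and 2.018 TPM). The epithelium, RPE, Müller glia, lens and microglia sums separated fully at 4 dpi, as given for mfge8b. Of these the lens sums alone did so at 2 dpi too, at 3.094 to 4.951 TPM in ablated and 6.38 to 11.17 TPM in unablated libraries. There 7 and 1 to 6 of 12 lens markers were at 0. Mural and mesenchyme sums overlapped at 2 dpi, at 18.33, 8.416 and 5.025 TPM in ablated and 10.92, 19.85 and 49.57 TPM in unablated libraries. Among unablated libraries these sums ran in the order of gas6 at both times. Among ablated libraries the one with the highest sum had the lowest gas6 value at each time. The part of any of these cell types in the gas6 values was not tested.

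mfge8a (ENSDARG00000015349, chromosome 7, 48788147 to 48805181, minus strand), the other MFG-E8 gene, behaved unlike mfge8b. At 2 dpi it measured 10.1, 5.39 and 6.64 TPM in ablated and 9.95, 66.0 and 2.05 TPM in unablated libraries, so that a single library set the unablated mean. That library, unablated replicate 2, was also the one with the highest RPE marker sum, 2988 TPM against at most 85.33 TPM in the other 11, and the part of RPE RNA in its mfge8a value was not tested. The log2 fold change was -1.95 (SE 1.16, edgeR adjusted p = 0.455) with it and 0.08 without it. With unablated replicates 1 and 2 both left out, which leaves 1 unablated library, the value was 1.50. At 4 dpi mfge8a was at 5.74, 8.82 and 5.32 TPM in ablated and 5.19, 3.49 and 7.35 TPM in unablated libraries, which overlapped (log2 fold change 0.33, SE 0.39).

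**Figure D2:**
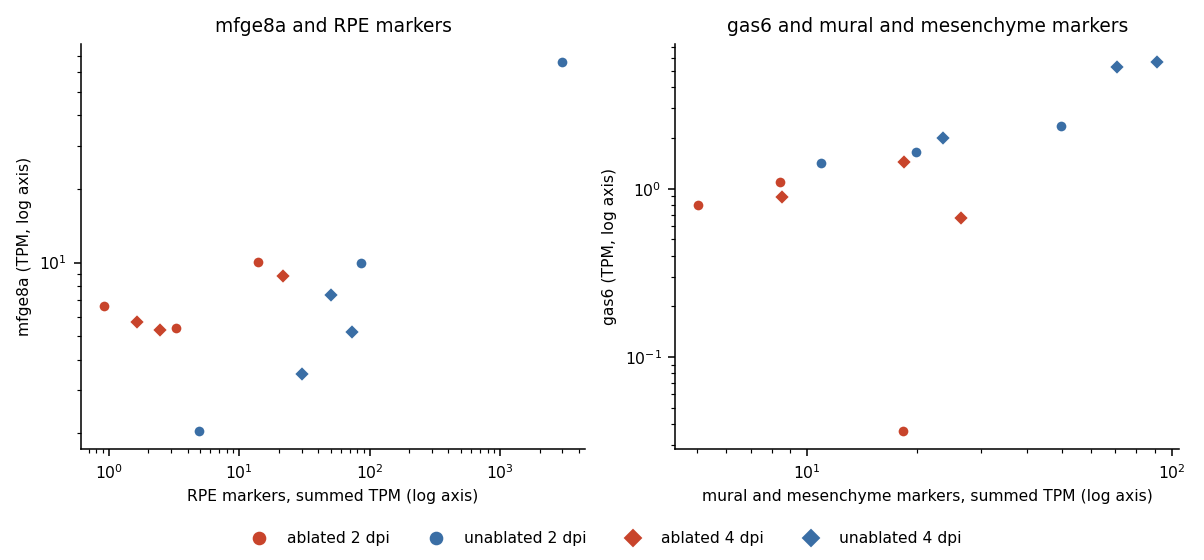
Level of mfge8a against the summed RPE markers (left) and of gas6 against the summed mural and mesenchyme markers (right), in TPM on log axes, one point per library, with colour for the condition and shape for the time. The mfge8a point of 66.0 TPM is the library whose RPE markers summed to 2988 TPM, and the 2 highest gas6 points are the libraries with the 2 highest mural and mesenchyme sums, 70.62 and 90.89 TPM. Among ablated libraries the lowest gas6 point of each time had the highest mural and mesenchyme sum, 18.33 and 26.49 TPM.

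elmo1 (ENSDARG00000098753, chromosome 19, 33887589 to 34063567, minus strand), the adaptor that in mammals joins the DOCK exchange factors, was nearly level. At 2 dpi it measured 253, 301 and 243 TPM in ablated and 244, 201 and 203 TPM in unablated libraries, with ablated replicate 3 just under unablated replicate 1. At 4 dpi it measured 261, 234 and 254 TPM in ablated and 259, 233 and 321 TPM in unablated libraries, fully overlapping. The log2 fold changes were 0.13 (95% interval -0.29 to 0.54) and -0.08 (95% interval -0.44 to 0.28) at 2 and 4 dpi.

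Over the whole set, edgeR called 0 of 10 genes for ablation at 2 dpi, where 0% of the 16048 genes tested were called and 2691 had an unadjusted p under 0.05. marco alone of the 10 had such a p. Other tools called genes at that time, 1486 with DESeq2 and 852 with limma on log2(TPM + 1), but none of the 10. Groups did not overlap for 1 gene that was higher (marco) and 1 that was lower (gas6), where the background was 22.1% of genes higher and 6.35% lower. At 4 dpi 1 of 9 was called, lower, against 3.71% of the 16313 genes tested. An unadjusted p under 0.05 was found for 4 of the 9, 1 higher and 3 lower, and for 3371 of all genes tested. Of the 10 genes, 2 were higher without overlap (marco and stab2, background 15.2%) and 3 were lower (mertka, gas6 and mfge8b, background 15.2%). The background covers tested genes only, and stab2 was not one of them at 4 dpi. The median log2 fold change of the tested members was -0.58 at 4 dpi, with 2 of 9 above 0, and -0.05 at 2 dpi, with 5 of 10 above 0. Over all genes tested the medians were -0.04 and -0.12. The median of all genes at 2 dpi depended on scaling, at -0.28 with DESeq2's size factors and 0.18 with limma on log2(TPM + 1).

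**Figure D3:**
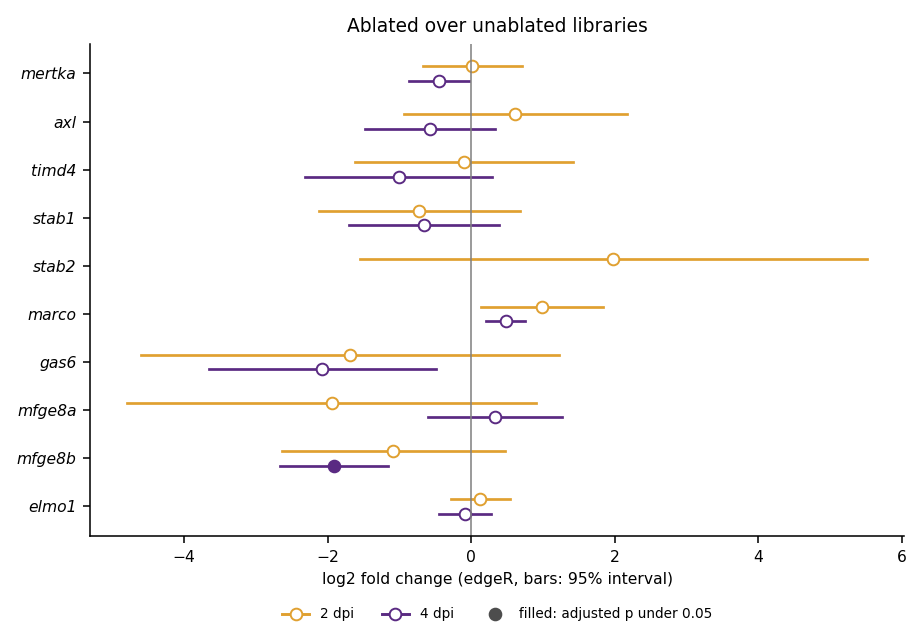
Log2 fold change of ablated over unablated libraries (horizontal axis) for each gene at 2 dpi and at 4 dpi from edgeR, with 95% intervals as bars; a filled point has an adjusted p under 0.05, and stab2 was not tested at 4 dpi. The filled point is mfge8b at 4 dpi, at -1.91.

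At 2 dpi the titles of equally numbered libraries bear a common date, which allows the comparison within dates. marco was 2.71, 1.6 and 3.05 times as high in ablated as in unablated libraries on the 3 dates, axl 1.93, 1.33 and 2.68 times, and elmo1 1.04, 1.50 and 1.20 times. mfge8b stood at 0.594, 0.559 and 0.309 times the unablated level, and gas6 was lower in the ablated library on 3 of 3 dates. Thus 3 of 10 members were higher and 2 of 10 lower on every date, close to the 32.3% and 17.6% of all genes tested that were so in TPM, and elmo1 had a log2 fold change of -0.038 with DESeq2's size factors. The ratios of mertka, timd4, stab1, stab2 and mfge8a pointed both ways. With date as a block no member was called at 2 dpi (marco 1.07, edgeR adjusted p = 0.134, and mfge8b -1.26, edgeR adjusted p = 0.127). All 4 dpi libraries carry 1 date.

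**Figure D4:**
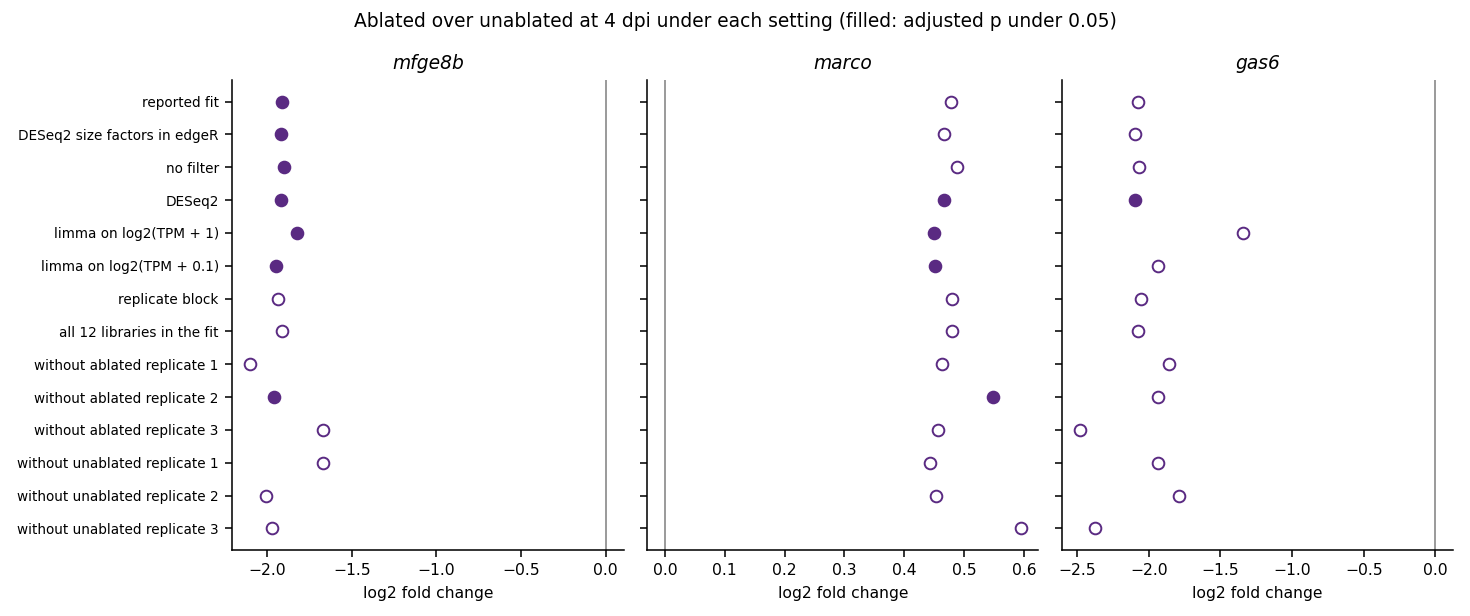
Log2 fold change of ablated over unablated libraries at 4 dpi for mfge8b, marco and gas6 (horizontal axes, one scale per gene) under each way of processing (rows); filled points have an adjusted p under 0.05. No point crosses 0, while the calls of mfge8b, marco and gas6 differ between rows.

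Between the times, mertka was higher at 4 dpi in both conditions. In unablated libraries it averaged 60.2 ± 4.59 TPM at 4 dpi and 21.4 ± 1.86 TPM at 2 dpi (SD, n = 3 each), and it rose with a log2 fold change of 1.30 (SE 0.23, 95% interval 0.78 to 1.81, edgeR adjusted p = 0.0412). In ablated libraries it averaged 43.3 ± 7.09 TPM at 4 dpi and 24.1 ± 7.67 TPM at 2 dpi, a log2 fold change of 0.77 (SE 0.23, edgeR adjusted p = 0.133) that DESeq2 called (adjusted p = 0.0112). In that contrast DESeq2 called 1250 of all 18079 genes and edgeR 234. No 4 dpi library overlapped a 2 dpi library of its condition. The unablated estimate kept between 1.21 and 1.37 when single libraries were left out, and its call held without unablated 2 dpi replicate 3 (edgeR adjusted p = 0.0450). It was lost without unablated 2 dpi replicate 1 (edgeR adjusted p = 0.0669) or 2 (0.0882) and without unablated 4 dpi replicate 1 (0.118), 2 (0.102) or 3 (0.0846). With unablated 2 dpi replicates 1 and 2 both out, which leaves 1 library in that group, the estimate was 1.31. The summed microglia markers were also higher at 4 dpi in unablated libraries, at 49590 to 75460 TPM against 15510 to 39760 TPM at 2 dpi. They overlapped in ablated libraries, at 28760 to 48810 against 10570 to 37280 TPM. Neutrophil markers summed higher without overlap in both conditions, as given next for marco. Vascular endothelium markers did so in ablated libraries (56.55 to 74.69 against 28.03 to 53.58 TPM) and overlapped in unablated ones. What part these cell types had in this difference was not tested. Time cannot be told apart from larval age or from the title dates in these contrasts.

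The scavenger receptor gene marco followed a similar order. It averaged 211 ± 18.7 TPM at 4 dpi and 91.9 ± 44.9 TPM at 2 dpi in unablated libraries, a log2 fold change of 1.01 (SE 0.27, edgeR adjusted p = 0.108), and 288 ± 2.5 TPM at 4 dpi and 204 ± 33.1 TPM at 2 dpi in ablated ones (0.42, SE 0.26, edgeR adjusted p = 0.564). The groups did not overlap in either condition. The unablated difference was called by DESeq2 (0.90, adjusted p = 0.0167), by limma on log2(TPM + 1) (1.29, adjusted p = 0.0241) and without unablated 2 dpi replicate 2 (1.45, edgeR adjusted p = 0.0292). Those settings called 1408, 765 and 24 of all genes, against 157 in the reported fit. Without unablated 2 dpi replicates 1 and 2 together, which leaves 1 library in that group, the value was 1.33. Neutrophil markers summed higher at 4 dpi too, at 579.2 to 745.4 against 215 to 314.6 TPM at 2 dpi in unablated and 845.8 to 969.9 against 537.1 to 628.6 TPM in ablated libraries. The mpx levels given above overlapped between the times in both conditions. The microglia sums given for mertka were higher too, though these overlapped in ablated libraries. The part of these cell types in the marco difference was not tested.

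Of the remaining receptors, axl averaged 8.34 ± 1.72 TPM at 4 dpi against 2.79 ± 1.84 TPM at 2 dpi in unablated libraries without overlap (log2 fold change 1.4, SE 0.50, edgeR adjusted p = 0.221). In ablated libraries it averaged 5.45 ± 1.84 TPM at 4 dpi and 4.77 ± 1.49 TPM at 2 dpi (0.13, SE 0.49). timd4 averaged 13.8 ± 6.99 against 5.90 ± 2.69 TPM in unablated libraries (1.03, SE 0.58) and 6.74 ± 2.13 against 6.21 ± 1.90 TPM in ablated ones (0.05, SE 0.57), in each case 4 dpi against 2 dpi. For stab1 the log2 fold change was 0.86 in unablated and 0.85 in ablated libraries (SE 0.54 each). None of these passed the test.

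The bridging genes showed no called time difference either. gas6 gave log2 fold changes of 1.04 (SE 0.96) in unablated and 0.56 (SE 0.96) in ablated libraries, and mfge8b gave 0.21 (SE 0.52) and -0.68 (SE 0.52). The mfge8a value of -2.45 (SE 0.92, edgeR adjusted p = 0.241) in unablated libraries rested on its single high library at 2 dpi. Without that library it was -0.38, and without unablated 2 dpi replicates 1 and 2 it was 1.13, while DESeq2 called it with all libraries (-2.55, adjusted p = 0.0418).

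Counted together, 1 of 10 genes was called for time in unablated libraries, higher, against 0.868% of the 18079 genes tested, and 3 were higher without overlap (mertka, axl and marco, background 15.2%). None was lower without overlap, where the background was 5.06%. An unadjusted p under 0.05 was found there for 4 of the 10, 3 higher and 1 lower, and for 2756 of all genes tested. In ablated libraries 0 of 10 were called, where 1.29% of genes were, and 1 of the 10, mertka, had an unadjusted p under 0.05, as did 2541 of all 18079 genes. There 2 were higher without overlap (mertka and marco, background 11.3%) and none was lower (background 14.2%). The median log2 fold change of the 10 was 0.93 in unablated and 0.27 in ablated libraries, where that of all genes tested was -0.08 and -0.02.

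**Figure D5:**
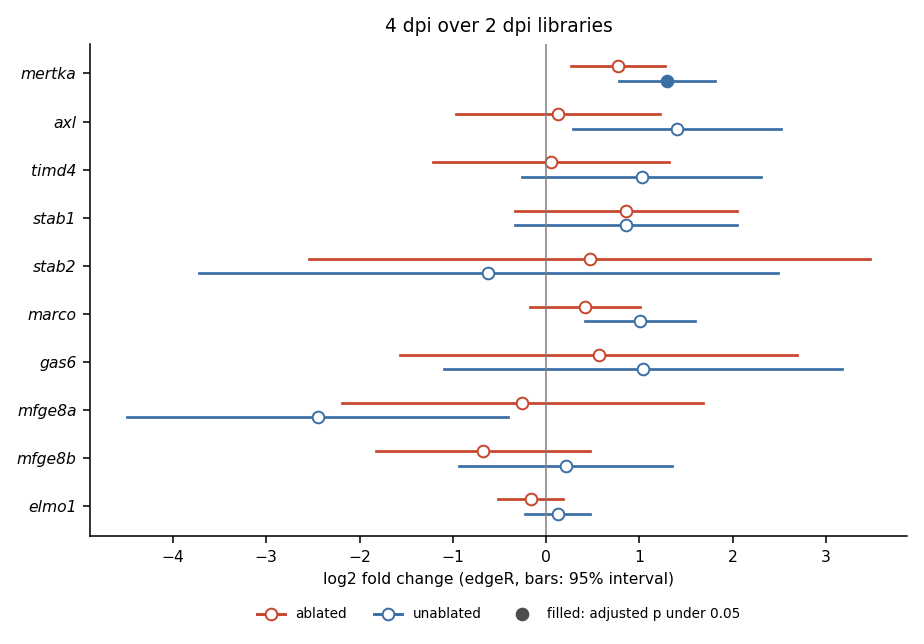
Log2 fold change of 4 dpi over 2 dpi libraries (horizontal axis) for each gene within ablated and within unablated libraries, from edgeR with all 12 libraries, with 95% intervals as bars; a filled point has an adjusted p under 0.05. The filled point is mertka in unablated libraries, at 1.30, and the mertka interval in ablated libraries, around 0.77, also lies above 0.

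Whether ablation acted differently at the 2 times was tested directly, as the effect at 4 dpi minus that at 2 dpi. edgeR called 0 of 10 genes and 0% of all 18079 genes, of which 1059 had an unadjusted p under 0.05 and DESeq2 called 80. None of the 10 reached an unadjusted p of 0.05. The largest differences were 2.19 for mfge8a (95% interval -0.58 to 4.97), which was -1.38 without unablated 2 dpi replicates 1 and 2, and -1.27 for axl (95% interval -2.83 to 0.28, edgeR adjusted p = 0.864). The call of mfge8b at 4 dpi is thus not shown to be particular to that time (difference -0.89, 95% interval -2.50 to 0.73), nor is the time difference of mertka shown to depend on ablation (-0.53, 95% interval -1.24 to 0.18).

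Other genes of the pathway were read from a list of 72 symbols, of which 62 genes other than the 10 were found. At 2 dpi 0 of 54 tested passed. The smallest p-values there belonged to the lysosomal membrane gene lamp1b (log2 fold change -1.56, edgeR adjusted p = 0.117), the calreticulin gene calr3a (0.89, edgeR adjusted p = 0.159) and the complement gene c1qa (0.89, edgeR adjusted p = 0.168). At 4 dpi 3 of 55 rose and 1 fell, all 4 in the bridging group, where 3.71% of all genes tested were called in either direction. The 3 that rose encode the chains of complement C1q, which in mammals coats dying cells. c1qa averaged 166 ± 40.8 TPM in ablated and 36.1 ± 8.89 TPM in unablated libraries, a log2 fold change of 2.25 (SE 0.29, edgeR adjusted p = 0.0254). In ablated and unablated libraries c1qb averaged 653 ± 109 and 226 ± 85.8 TPM (1.57, SE 0.29, edgeR adjusted p = 0.0430) and c1qc 1043 ± 216 and 421 ± 94.6 TPM (1.36, SE 0.24, edgeR adjusted p = 0.0402). anxa5b, which encodes the phosphatidylserine-binding annexin A5, fell to 42.6 ± 2.55 TPM in ablated libraries, against 100.2 ± 7.96 TPM in unablated ones (-1.21, SE 0.13, edgeR adjusted p = 0.0196). Each of these 4 calls held without ablated replicate 2 and was lost without any 1 of the other 5 libraries, where the edgeR adjusted p ran from 0.0526 to 0.156 and the direction was kept. All 4 were also lost with a replicate block (edgeR adjusted p = 0.111 each), and anxa5b (0.580), c1qb (0.0574) and c1qc (0.129), but not c1qa (0.00684), in the edgeR fit of all 12 libraries. The block called 0 of all 16313 genes at 4 dpi, where the replicate numbers were not taken as pairs. Macrophage markers summed higher at 4 dpi (12830 to 14090 TPM in ablated against 11470 to 12130 TPM in unablated libraries), as did neutrophil markers (845.8 to 969.9 against 579.2 to 745.4 TPM). Single markers, mpeg1.1 and mpx among them, overlapped as given for marco. Epithelial markers summed lower (877.7 to 1373 against 2918 to 5749 TPM). The part of these cell types in the C1q and anxa5b values was not tested.

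No other role group of the list held a call at 4 dpi. Of 13 receptor genes 6 were above 0 (median log2 fold change -0.14), of 15 engulfment signalling genes 1 was (median -0.42, 1 with an unadjusted p under 0.05) and of 16 genes of digestion and lipid export 7 were (median -0.09). Between the times, pparg and abca1a rose in both conditions. pparg, which encodes a lipid-sensing nuclear receptor, averaged 53.6 ± 13.1 TPM at 4 dpi against 15.8 ± 3.67 TPM at 2 dpi in ablated libraries (log2 fold change 1.69, edgeR adjusted p = 0.0272) and 60.0 ± 9.49 against 21.0 ± 3.00 TPM in unablated ones (1.32, edgeR adjusted p = 0.0447). The cholesterol exporter gene abca1a averaged 79.7 ± 6.61 against 22.8 ± 5.95 TPM in ablated (1.72, edgeR adjusted p = 0.0308) and 53.1 ± 3.52 against 16.9 ± 6.84 TPM in unablated libraries (1.46, edgeR adjusted p = 0.0484). The lipoprotein receptor gene scarb1 rose in ablated libraries, at 7.42 ± 1.46 TPM at 4 dpi and 2.18 ± 0.846 TPM at 2 dpi (1.70, edgeR adjusted p = 0.0420). When single libraries were left out, the ablated calls of pparg and abca1a held without 2 dpi replicate 1 and the unablated call of abca1a without 2 dpi replicate 1 or 3. In all other such fits of these 5 results, those of scarb1 and of unablated pparg included, the call was lost, at an edgeR adjusted p of 0.0546 to 0.202. The unablated abca1a call was also lost with DESeq2's size factors in edgeR (adjusted p = 0.0651) and with no filter (edgeR adjusted p = 0.0575), and the unablated pparg call with no filter (edgeR adjusted p = 0.0553). Without unablated 2 dpi replicates 1 and 2, which leaves 1 library in that group, the unablated values were 2.215 for abca1a and 1.381 for pparg. The calls made 3 of 58 tested in ablated and 2 of 58 in unablated libraries, where 1.29% and 0.868% of all genes tested were called. The microglia and neutrophil sums given for mertka and marco were higher at 4 dpi as well, with the overlaps stated there. The part of these cell types in these 5 results was not tested.

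For the 3 most abundant members, the genes whose log2(TPM + 1) followed them most closely over the 12 libraries were listed by Pearson's r. Only genes with a mean of at least 5 TPM were searched. Placeholder names, those holding a colon or starting with LOC, were left out, so a closer match may exist among them. marco was followed by wdr91 (r = 0.982, Spearman's rho 0.972), syk (r = 0.961, rho 0.846) and kat2a (r = 0.955, rho 0.797). mertka was followed by rplp2 (r = 0.967, rho 0.958), CU928117.1 (r = 0.959, rho 0.937) and epb41l3b (r = 0.958, rho 0.895). elmo1, which varied least, had weaker matches in fam45a (r = 0.857, rho 0.818), ino80e_1 (r = 0.848, rho 0.741) and ankzf1 (r = 0.840, rho 0.776). The 12 points share their group structure and the RNA of other cells in the sorts, so these values describe likeness in these libraries only.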

How the data were processed

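Total counts and TPM values per gene were deposited by the authors for each of the 12 libraries, per the file headers, and all 24 value columns were used. GRCz11 is the build in the submitters' processing notes. The sources used here do not give the aligner, the counting program or the annotation release. Amplified cDNA from a low-input full-length kit was sequenced, per the labels' protocols, so reads are not independent molecules. Reads shared by close paralogs, such as mfge8a and mfge8b, depend on counting rules that are not stated, and so does their split.

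The members and all gene lists were chosen with earlier results of these data known. Counts were tested with edgeR 4.0.16 (quasi-likelihood, TMM, default expression filter, robust) in R 4.3.3, with Benjamini-Hochberg adjustment over all genes tested and a threshold of 0.05. Ablation was tested in the 6 libraries of each time, and the contrasts between times and the difference of effects in all 12. Standard errors were derived from the F statistic. Named pathway genes were those past the threshold, at most 6 in a comparison, or, where none passed in an ablation comparison, the 3 with the smallest p. Fits were tested on simulated data. Alternatives were DESeq2's size factors in edgeR, no filter, DESeq2 1.42.0, limma 3.58.1 on log2(TPM + 1) and log2(TPM + 0.1) for genes with at least 1 TPM in 3 libraries, a replicate block, all 12 libraries in the fit, and omission of each library. Leaving out unablated 2 dpi replicates 1 and 2 together was added after seeing the data. It leaves 1 library in that group, so only effect sizes are given for it.

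Libraries with the same number share a title date at 2 dpi and were taken as paired there for that reason. This pairing entered only the ratios within dates and the replicate block. The reported tests of ablation held no date or replicate term and so were unpaired. After removal of group means they correlated at r = -0.02 to 0.72 (other pairs -0.72 to 0.33). At 4 dpi all titles carry 1 date and the same-number pairs correlated at -0.59 to -0.17, so they were not taken as paired. The replicate block was still run at 4 dpi as an alternative, on numbers with no known pairing. No 2 libraries held identical counts. Of 234 listed symbols 223 were found, 6 of them through reference name tables.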

Additional observations from a re-analysis of the deposited data

How the results depend on the processing

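The number of members called moved as follows. For ablation at 2 dpi it was 0 in every setting except the fit of all 12 libraries, which called 1 (marco) and 1142 of all 18079 genes tested. For ablation at 4 dpi the reported count of 1 became 3 with DESeq2, 2 with limma on log2(TPM + 1) or log2(TPM + 0.1), 0 with the replicate block or all 12 libraries, and 0 to 2 when each library was left out. The calls among all genes moved too. The reported 605 of 16313 became 2317 with DESeq2, and 1672 and 1360 of 13650 with the limma fits. They became 0 with the block, 222 of 18079 with all 12 libraries, and 0 to 1420 when each library was left out. For time in ablated libraries it was 0 except for 1 with DESeq2, and for time in unablated libraries the reported 1 became 3 with DESeq2, 2 with either limma fit and 0 to 2 when each library was left out. Among all 18079 genes DESeq2 called 1250 for time in ablated libraries (reported 234) and 1408 in unablated ones (reported 157). The limma fits called 765 and 739 of 15233 in unablated libraries, and leaving out single libraries there gave 14 to 493. For the difference of effects it was 0 in all settings run. The replicate block changed no other member's call.

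Values that turned sign were all uncalled. At 2 dpi mertka was -0.15 with DESeq2's size factors or DESeq2, -0.044 with no filter, -0.042 with the block and -0.11 without unablated replicates 1 and 2. With those libraries out stab1 was 0.26 and mfge8a 1.50, for time in unablated libraries stab2 was 1.80 and mfge8a 1.13, and in the difference stab2 was -1.33 and mfge8a -1.38. elmo1 was -0.038 with DESeq2's size factors or DESeq2 at 2 dpi, and -0.0051 (size factors) or -0.0049 (DESeq2) for time in unablated libraries. timd4 at 2 dpi was 0.11 and 0.14 with limma. In the difference stab1 was 0.19 with size factors or DESeq2 and 0.049 with no filter, and gas6 was 0.24 with the block.

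Leaving out single libraries gave ranges that crossed 0 at 2 dpi for mertka (-0.29 to 0.22), timd4 (-0.53 to 0.14), mfge8a (-2.46 to 0.077) and elmo1 (-0.023 to 0.20), and at 4 dpi for elmo1 (-0.15 to 0.10). For time in ablated libraries they did so for axl (-0.21 to 0.39), mfge8a (-0.45 to 0.038), mfge8b (-1.06 to 7.28e-05), stab2 (-0.59 to 1.52) and timd4 (-0.28 to 0.20), and in unablated ones for stab2 (-1.19 to 0.30) and mfge8b (-0.029 to 0.67). In the difference they did so for stab1 (-0.63 to 0.39) and gas6 (-1.04 to 0.10). The cause was not tested. stab2 rested on 1 to 72 and gas6 on 2 to 266 counts a library.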

Other observations

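Levels were also read relative to the macrophage markers, as TPM per 1000 TPM of the summed list, a scale chosen after the data were seen. The list itself summed higher in ablated libraries at 4 dpi, so the scale lowers every gene there. At 2 dpi it summed to 12530, 14070 and 14320 TPM in ablated and 5944, 9109 and 12610 TPM in unablated libraries. The scale thus raises unablated replicates 1 and 2 most at that time. On it 21% of all genes tested were lower and 9.89% higher without overlap at 4 dpi, 15.6% and 6.9% at 2 dpi. At 4 dpi 6 members were lower in ablated libraries without overlap, a count that rests in part on the scale. mertka stood at 2.96 to 3.65 in ablated and 4.61 to 5.67 in unablated libraries, axl at 0.324 to 0.536 and 0.636 to 0.851, and stab1 at 0.870 to 2.20 and 2.38 to 4.20. The bridging genes gas6 (0.0474 to 0.108 against 0.166 to 0.492) and mfge8b (0.347 to 0.703 against 2.00 to 3.41) and the adaptor gene elmo1 (18.3 to 19.1 against 20.3 to 26.4) were lower too. marco was higher, at 20.4 to 22.6 in ablated and 17.0 to 19.1 in unablated libraries, as was stab2. At 2 dpi gas6 alone was without overlap, at 0.00290 to 0.0779 against 0.182 to 0.241, and marco overlapped, at 13.3 to 16.3 against 5.62 to 15.7. No test was run on this scale.

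The other ligand and receptor of the TAM system were looked up after the values were seen. pros1, which encodes protein S, averaged 5.12 ± 0.976 TPM in ablated and 4.58 ± 0.895 TPM in unablated libraries at 2 dpi and 4.94 ± 2.21 and 5.38 ± 2.69 TPM at 4 dpi (SD, n = 3 each). It was above gas6 in mean in every group. The receptor kinase gene tyro3 was at 0 in every ablated library at 2 dpi and reached at most 0.784 TPM in any library.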
